A study of Homo sapiens with 12 samples.

Results

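The 10 genes studied here belong to the cellular response to low oxygen and lie outside glycolysis, and they were followed in HepG2 cells: HIF1A, EGLN1, EGLN3, VEGFA, ADM, CA9, NDRG1, BNIP3, BNIP3L and HIGD1A. They are 10 of the 62475 genes in the deposited count table, and all 10 passed the low-count filter that kept 14435 genes. They were taken by name, with earlier results of these data known, except that HIGD1A was added because it was strongly lower in mutant than in wild-type cells. Its values are therefore given as a description, without a test, and the counts below cover the other 9 genes.

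HepG2 is a human liver cancer cell line. HDAC1 is a histone deacetylase, and H89 is an inhibitor of protein kinase A (PKA). RNA was sequenced from 4 groups of 3 biological replicates, all HepG2: HDAC1_S434A cells with H89, HDAC1_S434A cells without H89, WT_HDAC1 cells with H89 and WT_HDAC1 cells without H89. S434A names a serine-to-alanine change in HDAC1. How the 2 HDAC1 genotypes were made, whether each is 1 clone, the H89 dose and time, and the oxygen level of the cultures are not stated in the labels. The labels do not say whether replicates came from separate cultures, so p-values measure the spread between these libraries.

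When oxygen is sufficient, prolyl hydroxylases such as the EGLN1 and EGLN3 products modify the HIF-1 alpha protein, which is then bound by VHL, tagged by an ubiquitin ligase and degraded. When oxygen falls, HIF-1 alpha persists, pairs with ARNT and binds short DNA elements with the core ACGTG or GCGTG near its target genes. Control of HIF-1 alpha acts mainly on the protein, which RNA counts do not measure, and the targets include genes for blood vessel growth, acid balance and the turnover of mitochondria.

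Total counts per library were 20064967 to 22648485 in S434A with H89 and 17562754 to 18533717 in S434A without H89. They were 20223311 to 21922022 in WT with H89 and 27763604 to 37187794 in WT without H89, the deepest group. HDAC1 itself lay between 552.5 and 752 CPM (each count scaled to a fixed library total) in all 12 libraries, and gene counts do not show the S434A change. All 10 hepatocyte markers were detected in every group, with summed CPM of 44410 to 45450 in S434A with H89, 33570 to 54580 in S434A without H89, 43980 to 48710 in WT with H89 and 73000 to 73550 in WT without H89. Of 6 fibroblast markers 2 were at 0 in all libraries, and the 6 together summed to at most 39.7 CPM. Of 6 blood and endothelial markers 2 were also at 0 in all libraries, and their sum was at most 9.42 CPM. The libraries also differed in composition in a way that followed the groups. Mitochondrially encoded genes took 8.27% to 8.57% of counts in S434A with H89, 5.73% to 8.10% in S434A without H89, 7.45% to 8.82% in WT with H89 and 3.83% to 3.91% in WT without H89. The share of ribosomal protein genes was 7.25% to 7.26% in S434A with H89, 8.64% to 10.6% in S434A without H89, 6.73% to 7.11% in WT with H89 and 18.3% to 18.8% in WT without H89. The part of these shares, and of the total counts, in the results below was not tested.

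The 3 untreated S434A libraries were much less alike than those of any other group. The biological coefficient of variation was 0.0547 in S434A with H89, 0.351 in S434A without H89, 0.0733 in WT with H89 and 0.0191 in WT without H89. Replicate 1 of untreated S434A stood farthest apart: ALB took 0.293% of its counts, against 1.82% and 2.43% in replicates 2 and 3. Every pair of replicates differed by more than sampling noise in a chi-square test, which over so many genes also flags small differences. Chi-square per degree of freedom was 1.62 to 2.04 in WT without H89 and 34.2 to 164 in S434A without H89. It was 5.95 to 9.34 in WT with H89 and 3.93 to 5.12 in S434A with H89. These values do not show whether replicates were separate cultures. For the members, values without replicate 1 of untreated S434A are given where the call changed. For single genes of the other lists they are not given.

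The clearest pattern among the 9 tested genes was a high level of BNIP3 in untreated WT cells alone. BNIP3 was 2.49-fold lower in S434A than in WT without H89, and 2.68-fold lower with H89 than without it in WT cells, while the change with H89 in S434A cells did not pass. BNIP3L and EGLN1 followed H89 instead and rose with it in both genotypes. VEGFA was higher in S434A without H89 and in WT with H89 than in untreated WT, and CA9 was highest in untreated S434A. The VEGFA rises, and the fall of CA9 with H89 in S434A, were lost or turned when each library's trend on gene GC content and length was removed, a step described below with its values. With H89 present no gene passed the test between genotypes. In bulk RNA a lower level in each cell and fewer cells that express a gene cannot be told apart.

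**Figure D1:**
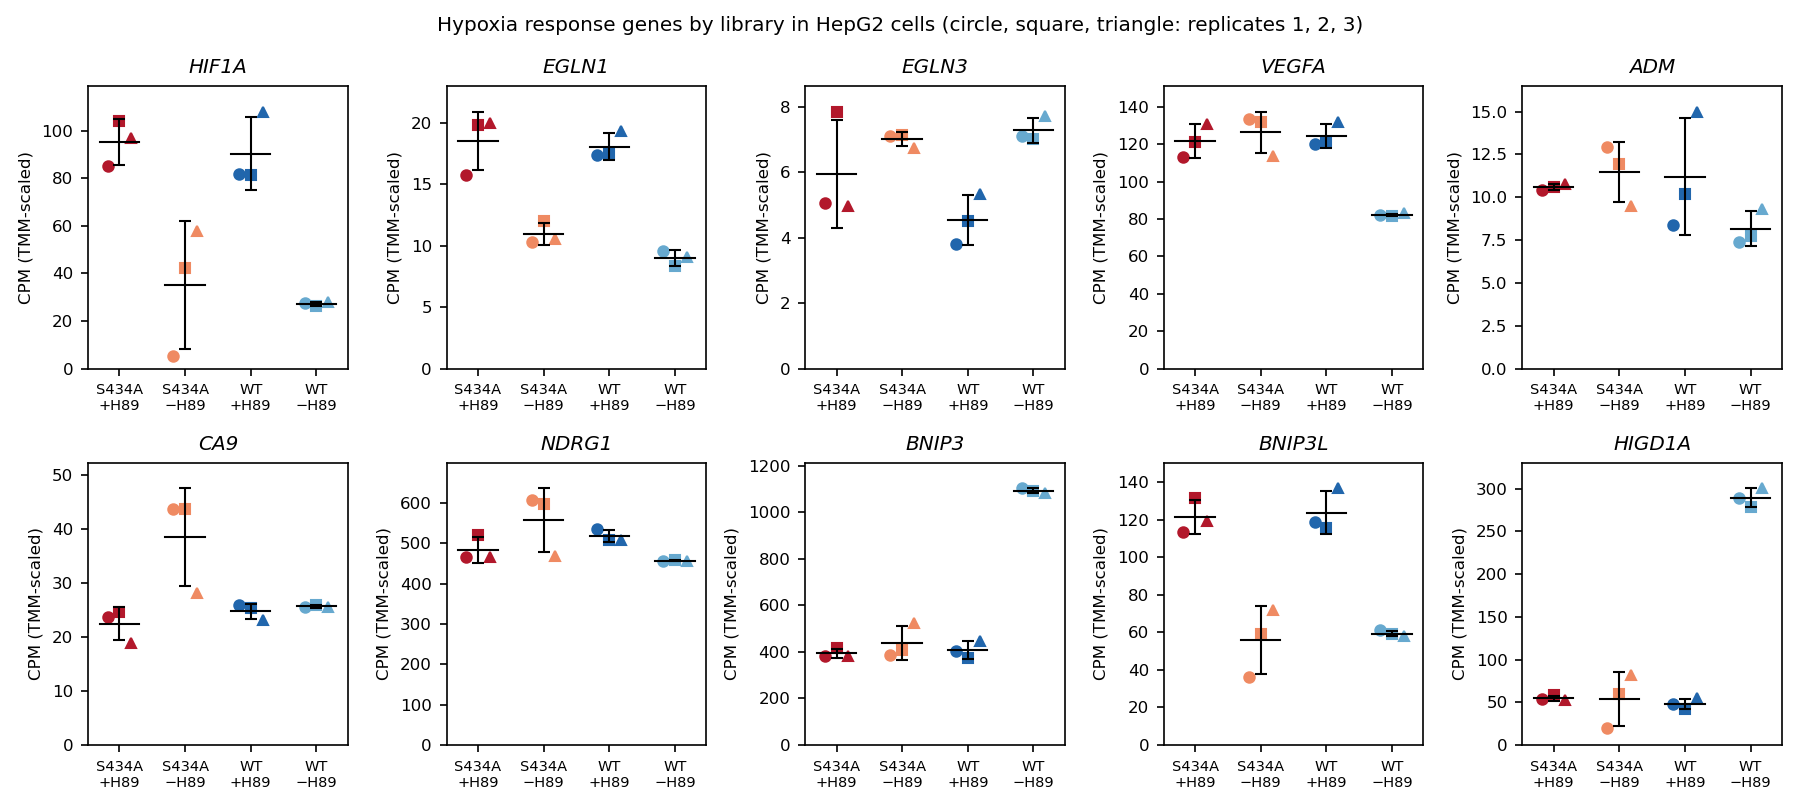
Levels of the 10 genes in the 12 libraries, in CPM scaled by trimmed-mean (TMM) factors, each panel on a linear axis from 0. Points are libraries, with circles, squares and triangles for replicates 1, 2 and 3, and the bars are the group mean and SD. BNIP3 and HIGD1A are high in untreated WT (right) and low in the other 3 groups, while BNIP3L, EGLN1 and HIF1A are high in both H89 groups.

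A gene was said to have risen or fallen where its adjusted p in edgeR's quasi-likelihood test, with Benjamini-Hochberg adjustment over all 14435 genes, was under 0.05 at any fold. In S434A against WT without H89, 3 of the 9 genes rose and 1 fell, and 58.3% of all genes tested passed in either direction (29.0% higher and 29.3% lower). In S434A cells with H89 against without, 2 rose and 1 fell, beside 52.0% of all genes (29.3% higher and 22.7% lower). In WT cells with H89 against without, 4 rose and 2 fell, beside 69.7% of all genes (38.8% higher and 30.9% lower). In this fit the members therefore passed at shares of 44.4%, 33.3% and 66.7%, close to or under those of all genes. Past 2-fold as well, 0 rose and 1 fell in the genotype comparison without H89 (22.9% of all genes, 11.6% higher and 11.3% lower). With H89 in S434A 1 rose and 0 fell (17.6%, 15.2% higher and 2.35% lower), and with H89 in WT 3 rose and 1 fell (38.0%, 22.2% higher and 15.8% lower). The median log2 fold change of the 9 genes was 0.29, −0.11 and 0.46 in the 3 comparisons, and that of all genes tested was −0.04, 0.01 and 0.20. The genotype comparison without H89 and the H89 comparison in WT share the untreated WT libraries, and the genotype comparison and the H89 comparison in S434A share the untreated S434A libraries, so their values are not independent.

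**Figure D2:**
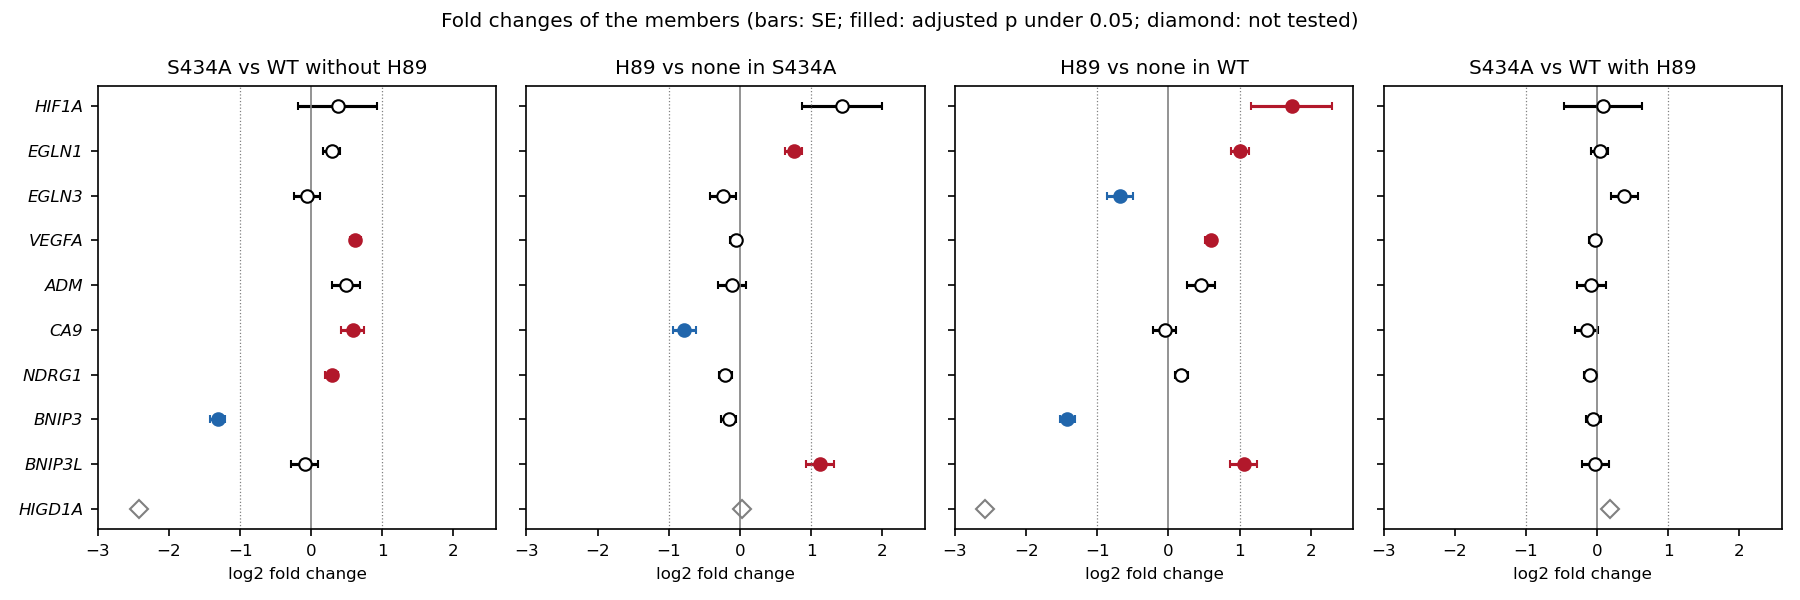
Log2 fold changes of the 10 genes in 4 comparisons of 2 groups, with the standard error as bars. Filled points passed the test, open circles did not, and the grey diamonds are HIGD1A, which was not tested. BNIP3 lies below −1 in the comparison of genotypes without H89 and in that of H89 in WT, and the panel at the right holds open symbols alone.

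BNIP3 and BNIP3L encode related proteins of the outer mitochondrial membrane that recruit the autophagy machinery and so promote the removal of mitochondria. HIGD1A encodes a small protein of the inner mitochondrial membrane that is induced by hypoxia. In S434A cells BNIP3 had 384, 416.5 and 382 CPM with H89 and 386, 408 and 523 CPM without it. In WT cells BNIP3 had 406, 372 and 446.5 CPM with H89 and 1104, 1090 and 1084 CPM without it. The 3 untreated WT libraries thus stood above the other 9, which overlapped one another. BNIP3 fell in S434A against WT without H89 (log2 fold change −1.32 ± 0.11 SE, adjusted p = 2.75e-06). It also fell with H89 in WT (−1.42 ± 0.11, adjusted p = 6.32e-07). In S434A the log2 difference with H89 was −0.15 ± 0.11 (adjusted p = 0.241), and it passed at −0.24 without replicate 1 of untreated S434A (adjusted p = 0.0496) and at −0.33 without replicate 2 (adjusted p = 0.0453).

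HIGD1A is given here as a description, since its low level in untreated S434A against untreated WT is what it was chosen on, and the H89 comparison in WT uses the same untreated WT libraries. In S434A cells HIGD1A had 53.4, 58.2 and 53.1 CPM with H89 and 19.8, 60.0 and 82.3 CPM without it. In WT cells HIGD1A had 47.9, 42.5 and 54.6 CPM with H89 and 289.6, 279 and 301 CPM without it. The lowest untreated WT library was above the highest of the other 9 libraries, and untreated S434A held both the lowest and the highest of those 9. As a description, HIGD1A was 5.36-fold lower in S434A than in WT without H89 and 5.99-fold lower with H89 than without it in WT. Without replicate 1 of untreated S434A the log2 difference between genotypes was −2.03, against −2.42 with it.

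BNIP3 lies on chromosome 10 (hg19, 133779959 to 133795517, minus strand) and HIGD1A on chromosome 3 (hg19, 42824400 to 42845982, minus strand), with levels summed over all annotated exons. BNIP3 shares no exon bases with another gene, and 18% of those of HIGD1A lie in other genes that held 0 or 1 counts. The 44 BNIP3 pseudogenes held 319 counts in all against 167800 for BNIP3, and the 17 HIGD1A pseudogenes held 71 against 33597. The promoters are shown for BNIP3, whose falls held under every alternative run, and for HIGD1A, the gene added for its level, as the 250 bases before the RefSeq start on the gene's strand (GRCh38.p14, with chr10:131981924-131982173 for BNIP3 and chr3:42804491-42804740 for HIGD1A). Capitals mark the hypoxia core ACGTG or GCGTG on either strand.
BNIP3: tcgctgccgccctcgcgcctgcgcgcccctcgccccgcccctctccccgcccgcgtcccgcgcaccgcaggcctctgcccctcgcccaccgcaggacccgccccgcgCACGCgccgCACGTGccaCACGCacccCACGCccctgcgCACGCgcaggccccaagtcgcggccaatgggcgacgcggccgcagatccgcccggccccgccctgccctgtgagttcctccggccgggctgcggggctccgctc
HIGD1A: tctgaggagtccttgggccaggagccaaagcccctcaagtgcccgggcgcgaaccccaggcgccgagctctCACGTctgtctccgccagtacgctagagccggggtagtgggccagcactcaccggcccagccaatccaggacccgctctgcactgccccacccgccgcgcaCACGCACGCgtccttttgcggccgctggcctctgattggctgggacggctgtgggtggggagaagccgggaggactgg
The BNIP3 window held 6 matches on the 2 strands, of which 2 are ACGTG read from the same place on each strand, and the HIGD1A window held 3, of which 1 is ACGTG. A core was found in 43.2% of 35116 RefSeq promoter windows of this length, and ACGTG in 18.5%. A match describes the letters and does not show binding.

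BNIP3L followed the inhibitor. In S434A cells BNIP3L had 114, 131.5 and 119.5 CPM with H89 and 36.2, 58.9 and 72.0 CPM without it. In WT cells BNIP3L had 119, 115 and 137 CPM with H89 and 61.0, 59.2 and 57.9 CPM without it. Every library with H89 stood above every library without it. BNIP3L rose with H89 2.18-fold in S434A (log2 fold change 1.13 ± 0.19 SE, adjusted p = 0.00134) and 2.08-fold in WT (1.06 ± 0.19, adjusted p = 0.00058). Between genotypes without H89 the log2 difference was −0.09 ± 0.19, with overlapping libraries. Without replicate 1 of untreated S434A the rise in S434A was 0.89 on the log2 scale and still passed (adjusted p = 1.18e-05).

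HIF1A encodes the oxygen-regulated subunit of HIF-1 and lies on chromosome 14 (hg19, 62162231 to 62214977, plus strand). In S434A cells HIF1A had 85.2, 104 and 97.0 CPM with H89 and 5.44, 42.4 and 57.7 CPM without it. In WT cells HIF1A had 81.7, 81.5 and 108 CPM with H89 and 27.5, 26.2 and 28.0 CPM without it. All 6 libraries with H89 were above all 6 without it, and replicate 1 of untreated S434A was far below the rest. HIF1A rose 3.32-fold with H89 in WT (log2 1.73 ± 0.57, adjusted p = 0.0185). That call was lost without any 1 of the 3 untreated WT libraries (adjusted p = 0.0506 to 0.055) and without replicate 3 of WT with H89 (log2 1.44, adjusted p = 0.0741). In S434A the log2 difference with H89 was 1.44 ± 0.56, which did not pass (adjusted p = 0.0525). Without replicate 1 of untreated S434A it was 0.93 and passed (adjusted p = 0.000113). Between genotypes without H89 the log2 difference was 0.37 ± 0.56 (adjusted p = 0.596), with overlapping libraries. It was 0.88 without replicate 1 of untreated S434A (adjusted p = 8.89e-05) and −0.19 without replicate 3, so no direction is given for it.

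EGLN1 encodes the main prolyl hydroxylase of HIF-1 alpha, and is itself a hypoxia target. In S434A cells EGLN1 had 15.8, 19.8 and 19.99 CPM with H89 and 10.3, 12.02 and 10.5 CPM without it. In WT cells EGLN1 had 17.4, 17.4 and 19.3 CPM with H89 and 9.57, 8.32 and 9.07 CPM without it. The H89 libraries of each genotype lay above the untreated ones. EGLN1 rose 1.69-fold with H89 in S434A (log2 0.76 ± 0.12, adjusted p = 0.000819) and 2.01-fold in WT (1.01 ± 0.12, adjusted p = 2.34e-05). Without H89 the 3 S434A libraries were above the 3 WT libraries, and the log2 difference of 0.29 ± 0.12 did not pass (adjusted p = 0.0642), though it was 0.32 and passed without replicate 1 of untreated S434A (adjusted p = 0.0421). EGLN1 shares 55.8% of its exon bases with another annotated gene that held 0 counts. By the default of featureCounts, the counting tool, read pairs that lie there should be counted for neither gene, which was not checked.

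EGLN3 encodes a second prolyl hydroxylase and was the least abundant of the 10 genes per length. In S434A cells EGLN3 had 5.04, 7.85 and 4.96 CPM with H89 and 7.10, 7.15 and 6.75 CPM without it. In WT cells EGLN3 had 3.80, 4.52 and 5.33 CPM with H89 and 7.10, 7.02 and 7.70 CPM without it. It fell with H89 in WT, 1.60-fold and with no overlap (log2 −0.68 ± 0.18, adjusted p = 0.00671), the opposite direction to EGLN1. In S434A the log2 difference with H89 was −0.24 ± 0.18 (adjusted p = 0.298), and it was −0.61 without replicate 2 of S434A with H89, the library that stood above its group (adjusted p = 0.0112).

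The EGLN1 promoter window is shown with that of CA9, described next, since each holds 1 core, ACGTG, close to the start (GRCh38.p14, chr1:231422288-231422537 minus strand for EGLN1 and chr9:35673678-35673927 plus strand for CA9). Capitals again mark the core.
EGLN1: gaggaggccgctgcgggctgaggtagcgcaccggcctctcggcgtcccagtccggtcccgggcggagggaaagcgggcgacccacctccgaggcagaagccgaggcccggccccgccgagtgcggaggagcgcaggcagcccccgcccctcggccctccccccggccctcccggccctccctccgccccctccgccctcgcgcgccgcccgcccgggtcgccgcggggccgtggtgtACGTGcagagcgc
CA9: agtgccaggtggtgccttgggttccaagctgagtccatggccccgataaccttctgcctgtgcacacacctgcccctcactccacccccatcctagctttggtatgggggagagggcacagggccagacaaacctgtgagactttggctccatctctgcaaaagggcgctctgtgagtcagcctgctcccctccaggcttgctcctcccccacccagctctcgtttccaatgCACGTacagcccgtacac
Of the other members with a RefSeq promoter entry, ADM held 1 core, EGLN3 none, and HIF1A 1 in the first of its 2 entries and none in the second.

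CA9 encodes carbonic anhydrase IX, a cell-surface enzyme that helps to regulate pH. In S434A cells CA9 had 23.7, 24.6 and 18.9 CPM with H89 and 43.7, 43.7 and 28.0 CPM without it. In WT cells CA9 had 25.8, 25.3 and 23.1 CPM with H89 and 25.5, 26.0 and 25.6 CPM without it. Replicates 1 and 2 of untreated S434A were the highest 2 libraries, and replicate 3 was just above the WT range. CA9 rose 1.498-fold in S434A against WT without H89 (log2 0.58 ± 0.16, adjusted p = 0.00882), a call that was lost without replicate 2 of untreated S434A (0.45, adjusted p = 0.0546) and kept with the GC and length trend removed. It fell 1.72-fold with H89 in S434A (−0.78 ± 0.16, adjusted p = 0.00321), a fall that was lost with that trend removed (−0.12, adjusted p = 0.459). In WT the log2 difference with H89 was −0.05 ± 0.16 (adjusted p = 0.774), which turned to a rise of 0.67 with the trend removed (adjusted p = 0.000388). CA9 shares 36.1% of its exon bases with ARHGEF39 on the opposite strand, which held 2089 counts in all. The file header sets no option for strand or overlap. By the featureCounts default, read pairs that lie on shared bases should then be counted for neither gene, and the CA9 level may be too low.

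VEGFA encodes the growth factor that drives the growth of blood vessels. In S434A cells VEGFA had 113, 121 and 131 CPM with H89 and 134, 132 and 114 CPM without it. In WT cells VEGFA had 120.1, 121 and 132 CPM with H89 and 82.1, 81.8 and 83.1 CPM without it. The 3 untreated WT libraries were below the other 9. VEGFA rose 1.54-fold in S434A against WT without H89 (log2 0.62 ± 0.08, adjusted p = 5.04e-05) and 1.51-fold with H89 in WT (0.60 ± 0.08, adjusted p = 4.53e-05). In S434A the log2 difference with H89 was −0.05 ± 0.08 (adjusted p = 0.572), and it was −0.24 without replicate 3 of S434A with H89 (adjusted p = 0.0423). Both rises depended on how library composition was treated, as set out below.

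ADM encodes adrenomedullin, a secreted peptide that widens blood vessels. In S434A cells ADM had 10.4, 10.6 and 10.8 CPM with H89 and 12.9, 11.9 and 9.50 CPM without it. In WT cells ADM had 8.37, 10.2 and 14.99 CPM with H89 and 7.39, 7.76 and 9.33 CPM without it. No comparison passed. Without H89 the S434A libraries were all above the WT libraries, with a log2 difference of 0.49 ± 0.20 (adjusted p = 0.0578), which was 0.60 without replicate 3 of untreated S434A (adjusted p = 0.0269). With H89 in WT it was 0.46 ± 0.20 (adjusted p = 0.063).

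NDRG1 encodes a cytoplasmic protein induced by hypoxia and by cell differentiation. In S434A cells NDRG1 had 465, 519.5 and 465 CPM with H89 and 608, 598 and 467 CPM without it. In WT cells NDRG1 had 534, 509 and 508 CPM with H89 and 456.5, 458 and 456 CPM without it. NDRG1 rose 1.22-fold in S434A against WT without H89 (log2 0.29 ± 0.09, adjusted p = 0.0188), and this turned to −0.49 with the GC and length trend removed (adjusted p = 0.000276). Replicate 3 of untreated S434A was near the WT level, and the call was lost without replicate 2 of that group (0.21, adjusted p = 0.116) and without any 1 of the untreated WT libraries (adjusted p = 0.0508 to 0.0544). In S434A the log2 difference with H89 was −0.21 ± 0.09 (adjusted p = 0.078), and it passed without replicate 2 or 3 of untreated S434A or any 1 of the S434A libraries with H89, at −0.28 to −0.39. Without replicate 1 of untreated S434A it was −0.14 and did not pass (adjusted p = 0.198). In WT it was 0.18 ± 0.09 with no overlap (adjusted p = 0.103), and −0.0046 without replicate 1 of WT with H89.

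With H89 present, S434A and WT cells were not separated at any of the 9 genes. Log2 differences ran from −0.14 ± 0.16 for CA9 to 0.39 ± 0.19 for EGLN3, each with an adjusted p of 1 and with libraries that overlapped for all 10 genes. Of all genes tested 0% passed, with 0 calls by edgeR and 589 at an unadjusted p under 0.05, none of them among the 9. The edgeR fit pools the spread of all groups, that of untreated S434A among them. DESeq2 called 2 genes, with 538 at an unadjusted p under 0.05. Limma-voom with a weight per group called 3, with 1830 at an unadjusted p under 0.05. None of the 9 was among these either. These bounds allow small differences, and for HIF1A (log2 0.08 ± 0.55 SE) they allow large ones. They do not show that the levels were equal.

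The H89 effect differed between the genotypes for 4 of the 9 genes, beside 48.0% of all genes tested (24.0% in each direction). Past 2-fold it did for BNIP3 alone of the 9, beside 24.2% of all genes (11.7% higher and 12.4% lower). The interaction, the log2 H89 effect in S434A minus that in WT, was 1.27 ± 0.15 for BNIP3 (adjusted p = 7.72e-05) and −0.65 ± 0.11 for VEGFA (adjusted p = 0.000646). It was −0.73 ± 0.23 for CA9 (adjusted p = 0.0212) and −0.39 ± 0.13 for NDRG1 (adjusted p = 0.0293). For BNIP3L it was 0.07 ± 0.27 and for EGLN1 −0.25 ± 0.17, neither of which passed. With the GC and length trend removed both did, at −0.75 for BNIP3L (adjusted p = 0.000131) and −0.46 for EGLN1 (adjusted p = 0.0405), as did EGLN3 at 0.85 (adjusted p = 0.0204). The CA9 interaction was lost without replicate 2 of untreated S434A, replicate 3 of S434A with H89, or replicate 1 or 2 of WT with H89 (adjusted p = 0.0543 to 0.0688). NDRG1 did not pass in 9 of the 12 such fits. For HIF1A it was −0.29 ± 0.78, and −0.80 without replicate 1 of untreated S434A (adjusted p = 0.00228).

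Gene length and GC content (the share of G and C bases) moved with the groups. Over 14280 genes with a GC value, a smooth trend on the 2 accounted for 38.7% of the variance of log2 fold change in S434A against WT without H89, 52.6% with H89 in S434A, 24.9% with H89 in WT and 3.44% between genotypes with H89. With each library's trend removed, BNIP3 still fell in S434A against WT without H89 (log2 −1.58, adjusted p = 4.25e-05) and with H89 in WT (−1.38, adjusted p = 5.82e-05). BNIP3L still rose with H89 in S434A (0.32, adjusted p = 0.00421) and in WT (1.07, adjusted p = 3.62e-08). EGLN1 also still rose with H89, by 0.51 in S434A (adjusted p = 0.0039) and by 0.97 in WT (adjusted p = 5.35e-06). EGLN3 still fell with H89 in WT (−0.88, adjusted p = 0.000817) and HIF1A still rose there (1.58, adjusted p = 0.000613). HIGD1A stood at −1.57 between genotypes without H89 and at −2.23 with H89 in WT.

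Other members did not keep their values. VEGFA turned to −0.32 in S434A against WT without H89 (adjusted p = 0.0388) and to −0.13 with H89 in WT (adjusted p = 0.34). NDRG1 turned in S434A against WT without H89, as given above, and stood at −0.44 with H89 in WT (adjusted p = 0.000428). CA9 kept its rise in S434A without H89 (0.63, adjusted p = 0.000955), lost its fall with H89 in S434A and rose with H89 in WT, with the values given above. BNIP3L (0.66, adjusted p = 8.97e-06), HIF1A (0.96, adjusted p = 0.0196) and EGLN1 (0.48, adjusted p = 0.00418) passed as higher in S434A without H89. ADM passed as higher with H89, at 0.53 in S434A (adjusted p = 0.0403) and 1.02 in WT (adjusted p = 0.000393). GC content was 54.7% for VEGFA, 52.1% for NDRG1, 60.1% for CA9 and 58.5% for ADM, against 36.4% for HIF1A, 38.9% for BNIP3L and 37.7% for HIGD1A, and 51.4% for BNIP3.

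**Figure D3:**
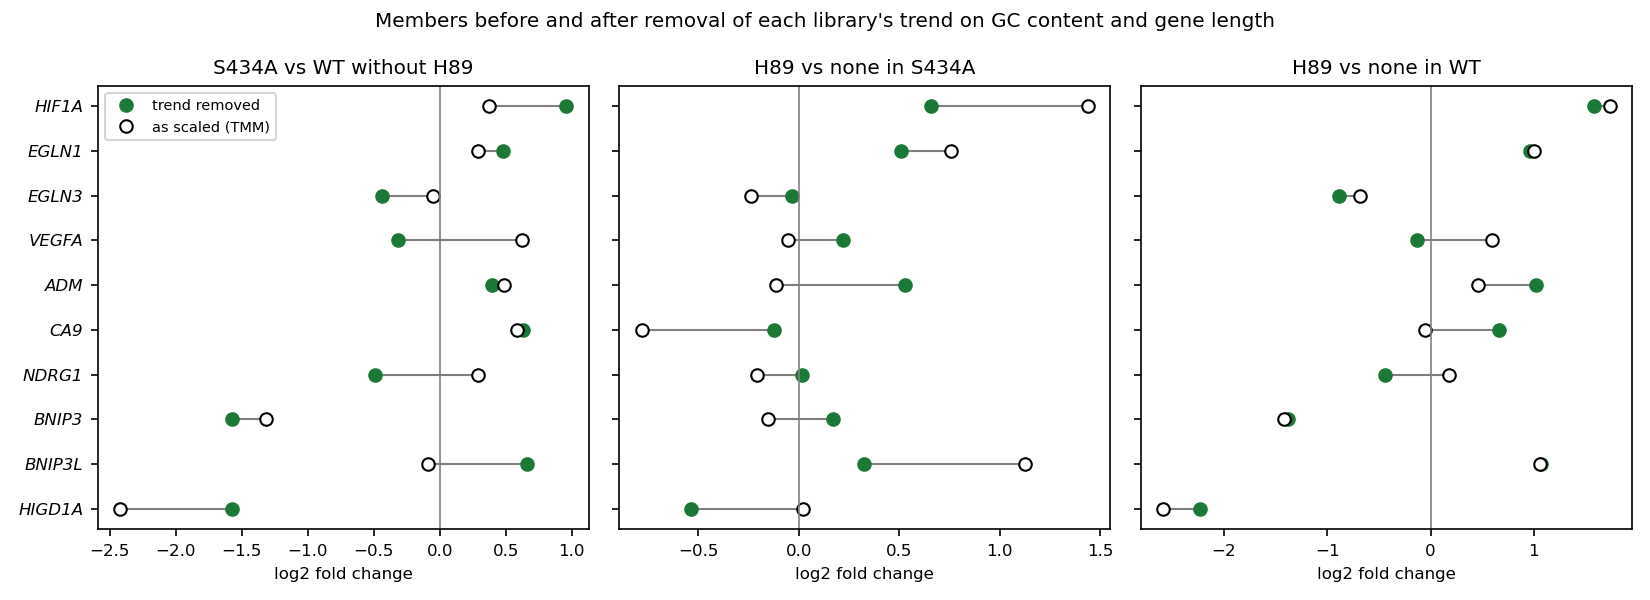
Log2 fold changes of the 10 genes with TMM scaling alone (open circles) and after removal of the GC and length trend of each library (filled circles), in 3 comparisons. BNIP3 in the left and right panels and BNIP3L and EGLN1 in the right panel move little, while VEGFA and NDRG1 cross 0 in the left and right panels.

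Scaling moved the centre of 2 comparisons. With H89 in WT the median log2 fold change of all genes was 0.20 with TMM factors and 0.05 with DESeq2-type (RLE) factors, and with RLE the members read 0.91 for BNIP3L, 0.86 for EGLN1, 0.45 for VEGFA and −1.57 for BNIP3, all with unchanged calls. Over all genes 5598 were higher and 4467 lower with H89 in WT with TMM, against 4779 and 5046 with RLE. With H89 in S434A that median was 0.01 with TMM, −0.08 with RLE and −0.11 with upper-quartile factors. There 4224 genes were higher and 3280 lower with TMM, against 3566 and 4273 with RLE and 3568 and 4393 with upper-quartile factors. NDRG1 passed as lower with RLE (−0.30, adjusted p = 0.0164), and BNIP3 with upper-quartile factors (−0.28, adjusted p = 0.0384).

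Counts cover all annotated exons of each gene. In hg19 EGLN1 lies on chromosome 1 (231499497 to 231558033, minus strand), EGLN3 on chromosome 14 (34393433 to 34931980, minus strand) and VEGFA on chromosome 6 (43737921 to 43754224, plus strand). ADM lies on chromosome 11 (10326620 to 10328944, plus strand), CA9 on chromosome 9 (35673915 to 35681156, plus strand), and BNIP3L (26240570 to 26363152, plus strand) and NDRG1 (134249418 to 134314265, minus strand) on chromosome 8. Levels can be set against each other per kilobase of exon. In S434A with H89 the mean CPM per kilobase was 74.0 for BNIP3, 40.3 for NDRG1, 29.3 for BNIP3L, 18.5 for HIF1A, 18.2 for HIGD1A, 13.9 for CA9, 8.44 for VEGFA, 4.55 for ADM, 3.45 for EGLN1 and 0.808 for EGLN3. HIF1A and HIGD1A overlapped there and the other neighbours in that order did not. WT with H89 gave the same order, from 76.7 CPM per kilobase for BNIP3 to 0.617 for EGLN3, and HIGD1A overlapped both HIF1A and CA9. In WT without H89 BNIP3 stood at 205 and HIGD1A at 95.8 CPM per kilobase, ahead of NDRG1 at 38.1, CA9 at 15.97, BNIP3L at 14.3, VEGFA at 5.71, HIF1A at 5.28, ADM at 3.51, EGLN1 at 1.67 and EGLN3 at 0.988, with no overlap between neighbours. In S434A without H89 BNIP3 led at 82.4 CPM per kilobase and NDRG1 followed at 46.5. CA9, HIGD1A, BNIP3L, VEGFA, HIF1A and ADM followed, from 23.9 to 4.92 CPM per kilobase, each overlapping the next of these 6, and EGLN1 and EGLN3 came last without overlap. The places of EGLN1, CA9 and HIGD1A in these orders are not firm, since 55.8%, 36.1% and 18% of their exon bases lie in other genes. Read pairs that lie there should by the featureCounts default be counted for neither gene.

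The wider pathway was read from 4 lists with 44 genes, of which 40 were tested. Without H89, 19 rose and 10 fell in S434A against WT. With H89, 10 rose and 12 fell in S434A, and 21 rose and 10 fell in WT. With RLE factors these were 8 and 17 in S434A and 14 and 12 in WT, so that the balance of rises and falls depended on the scaling. The shares that passed were 72.5%, 55.0% and 77.5%, against 58.3%, 52.0% and 69.7% of all genes tested. Without replicate 1 of untreated S434A the first 2 comparisons gave 19 and 9, and 11 and 11.

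Of 6 tested HIF subunits and cofactors 5 rose and none fell in S434A without H89, where 29.0% of all genes were higher, and likewise with H89 in WT, where 38.8% were. Their median log2 fold changes were 0.91 and 0.95, against −0.04 and 0.20 over all genes. ARNT2, a relative of ARNT, did not pass in either (0.05, adjusted p = 0.805, and −0.31, adjusted p = 0.12), and ARNT rose 1.14-fold and 1.22-fold. EP300 and CREBBP, the histone acetyltransferases that HIF recruits, rose most: EP300 averaged 41.3 ± 4.40 CPM in S434A and 12.9 ± 0.39 CPM in WT without H89 (SD, n = 3 each), a log2 fold change of 1.68. With H89 in WT EP300 rose by 2.43 and CREBBP by 2.28 on the log2 scale (adjusted p = 4.41e-09 and 6.23e-08), and in S434A by 0.59 and 0.56 (adjusted p = 0.000268 and 0.00428). EPAS1, which encodes HIF-2 alpha, rose by 1.18 in S434A without H89 (adjusted p = 1.67e-06) and by 1.16 with H89 in WT (adjusted p = 7.76e-07). CREBBP rose by 1.56 and CITED2, an inhibitor of the HIF to EP300 contact, by 0.63 in S434A without H89 (adjusted p = 2.68e-06 and 0.000441). CITED2 rose by 0.75 with H89 in WT (adjusted p = 9.39e-05). With the GC and length trend removed these 4 genes passed in the same direction in both comparisons, at 0.56 to 0.93 in the first and 0.90 to 1.83 in the second.

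Of 7 tested genes of oxygen sensing and HIF degradation 4 fell and 1 rose in S434A without H89, where 29.3% of all genes were lower, and 5 fell and 1 rose with H89 in WT, where 30.9% were. ELOC, a subunit of the VHL ubiquitin ligase, fell by 1.90 on the log2 scale in S434A without H89 and fell by 2.03 with H89 in WT (adjusted p = 1.38e-05 and 4.71e-06). RBX1, the ligase's RING subunit, fell by 1.34 in S434A without H89 and fell by 1.60 with H89 in WT (adjusted p = 8.82e-07 and 7.21e-08). ELOB, another subunit, fell by 0.80 in S434A without H89 and fell by 1.21 with H89 in WT (adjusted p = 4.45e-06 and 7.84e-08). VHL, which recognises the hydroxylated protein, fell by 0.59 in S434A without H89 and fell by 0.67 with H89 in WT (adjusted p = 4.8e-05 and 1.2e-05). All 4 kept their direction and passed with the trend removed. With H89 in S434A, ELOB fell by 0.36 (adjusted p = 0.00246), HIF1AN, a hydroxylase of HIF-1 alpha, by 0.25 (adjusted p = 0.025) and EGLN2, a prolyl hydroxylase, by 1.01 (adjusted p = 0.0362), while CUL2, the ligase's scaffold, rose by 1.63 (adjusted p = 0.00802). With the trend removed ELOB stood at 0.28 in that comparison (adjusted p = 0.0448), the opposite direction, and EGLN2 at −0.51 did not pass (adjusted p = 0.12). The EGLN2 level was low, at a mean of 1.05 CPM with H89 and 2.14 CPM without it in S434A. For EGLN2 and HIF1AN the libraries of that comparison overlapped.

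Of 11 secreted and matrix targets 8 rose and 1 fell in S434A without H89, where 81.8% passed against 58.3% of all genes. In S434A cells 1 rose and 6 fell with H89, where 63.6% passed against 52.0%. LOXL2, which cross-links collagen, fell by 1.80 with H89 in S434A (adjusted p = 0.000861) and ANGPTL4, which regulates lipid uptake, by 0.84 (adjusted p = 0.00302). The LOXL2 level was low, at a mean of 0.94 CPM with H89 and 3.29 CPM without it in S434A. EPO, the red-cell hormone, fell by 0.60 there (adjusted p = 0.0014) and by 1.29 with H89 in WT (adjusted p = 1.07e-06). In S434A without H89 PLOD1 and LOX, enzymes of collagen cross-linking, rose by 0.94 and 0.74 (adjusted p = 0.000137 and 0.000191), and STC2, a secreted glycoprotein, by 0.53 (adjusted p = 0.000556). With H89 in WT 8 rose and 1 fell (81.8% against 69.7% of all genes), among the risers STC2 by 0.72, LOX by 0.75 and PLOD1 by 0.54 (adjusted p = 4.41e-05, 0.000124 and 0.00423). With the trend removed the counts became 6 up and 1 down, 2 up and 4 down, and 7 up and 2 down in these 3 comparisons. Of all genes 53.3%, 47.2% and 71.0% then passed. STC2 in S434A without H89 (0.11, adjusted p = 0.37) and EPO and ANGPTL4 with H89 in S434A (0.05 and −0.20, adjusted p = 0.76 and 0.204) no longer passed.

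Intracellular targets split. Of 16 tested, 5 rose and 5 fell in S434A without H89, 6 rose and 3 fell with H89 in S434A, and 7 rose and 4 fell with H89 in WT. The shares that passed were 62.5%, 56.25% and 68.75%, near the 58.3%, 52.0% and 69.7% of all genes. FAM162A, a mitochondrial protein linked to hypoxic cell death, fell by 1.78 in S434A without H89 (adjusted p = 2.52e-06) and by 1.71 with H89 in WT (adjusted p = 1.41e-06), and ANKRD37 fell by 1.49 in the first (adjusted p = 2.78e-05). BHLHE40, a transcriptional repressor, rose by 1.11 in S434A without H89 and by 1.37 with H89 in WT (adjusted p = 3.58e-06 and 3.03e-07). KDM4B, a histone demethylase, rose by 1.15 in S434A without H89 (adjusted p = 4.54e-05) but stood at −0.10 with the trend removed (adjusted p = 0.442). HMOX1, which breaks down haem, rose with H89 by 0.72 in S434A and 1.36 in WT (adjusted p = 0.00126 and 2.9e-06). HILPDA, a lipid-droplet protein, fell with H89 in both genotypes (log2 −0.74 in S434A and −1.496 in WT, adjusted p = 0.00131 and 1.6e-06). WSB1, a ubiquitin ligase subunit, rose by 1.097 and NDUFA4L2, a mitochondrial complex subunit, fell by 1.01 with H89 in S434A (adjusted p = 0.000245 and 0.00543). Neither of these 2, nor HILPDA in S434A, passed with the trend removed (0.23, −0.40 and −0.29, adjusted p = 0.0713, 0.229 and 0.126). The NDUFA4L2 level was low, at a mean of 0.73 CPM with H89 and 1.47 CPM without it in S434A.

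**Figure D4:**
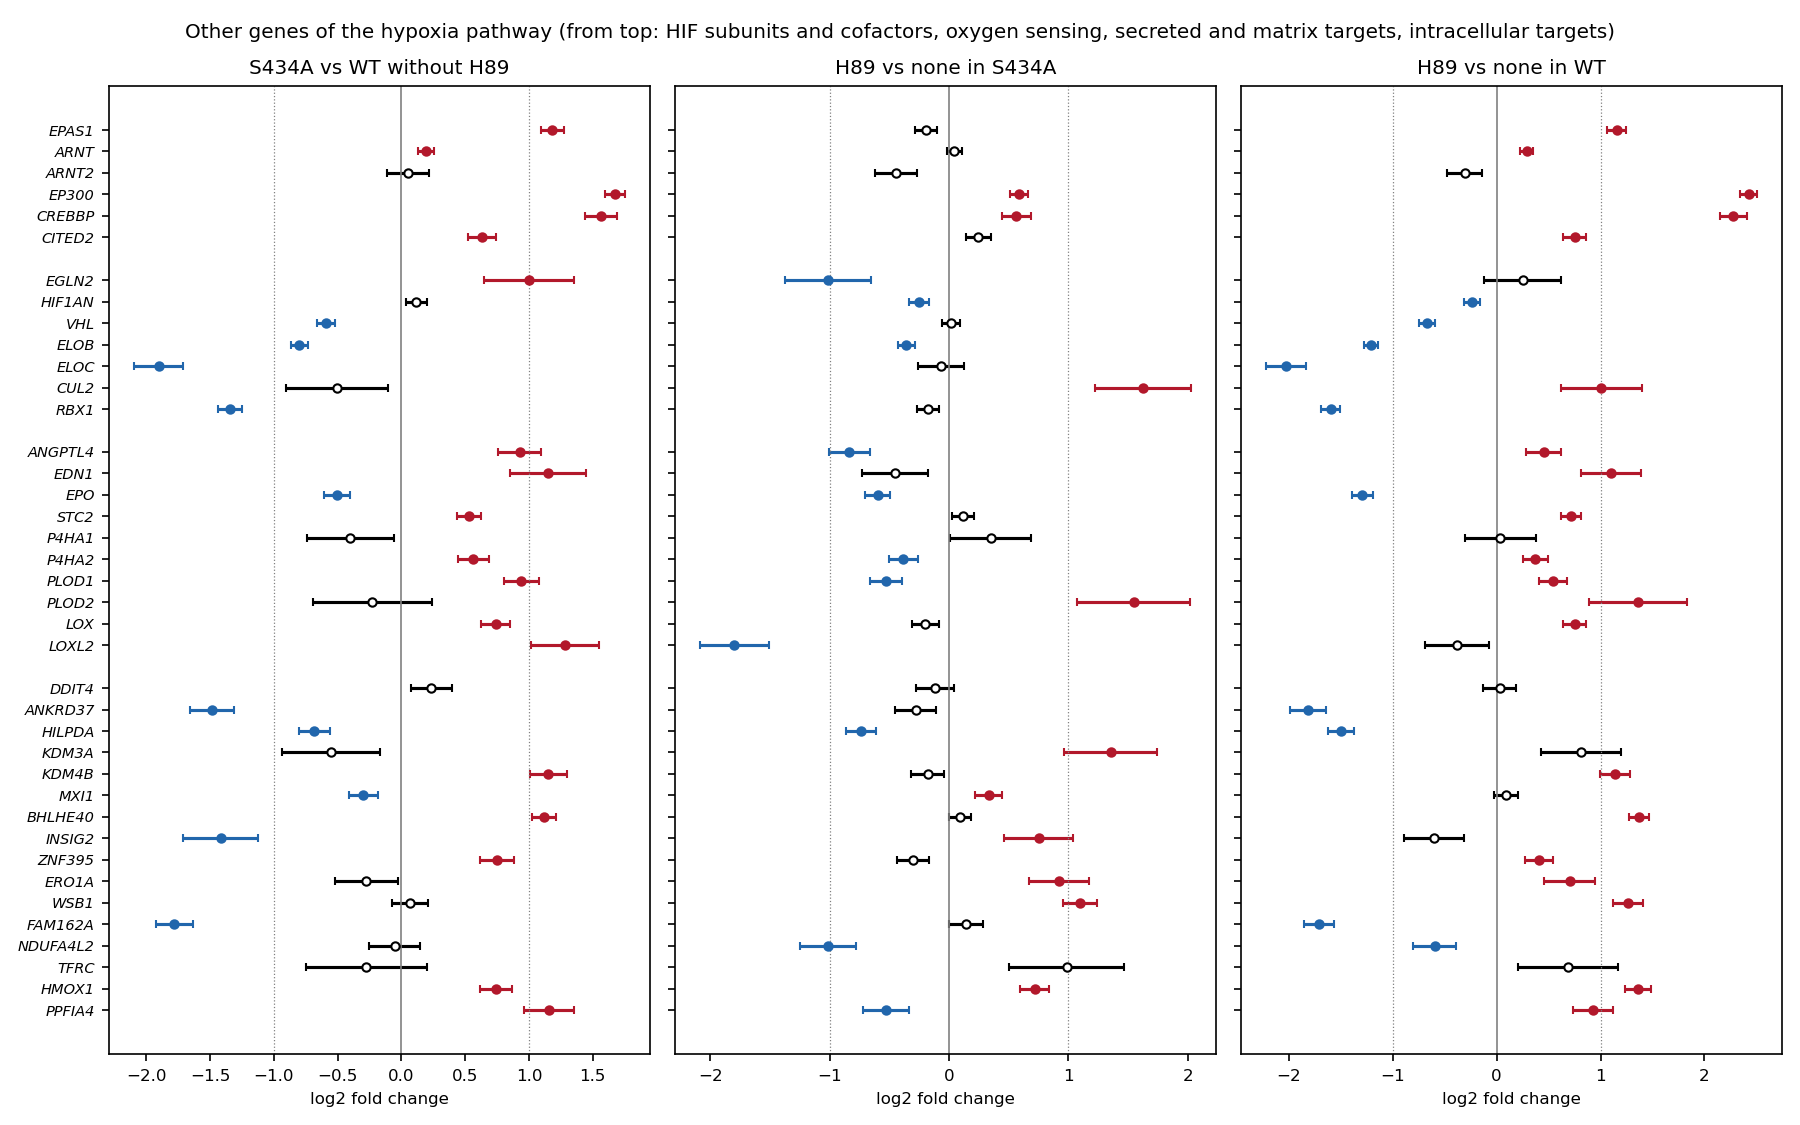
Log2 fold changes of hypoxia pathway genes in 3 comparisons, with the standard error as bars and the lists set apart by gaps. Red points rose, blue points fell and open points did not pass. EP300 and CREBBP lie to the right and ELOC and RBX1 to the left in the outer panels, and the secreted targets lie mostly to the right in the left panel and to the left in the middle one.

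Relatives and receptors of the members numbered 12 tested genes of 20. In S434A without H89 6 rose and 2 fell, with H89 in S434A 2 rose and 6 fell, and with H89 in WT 4 rose and 5 fell. The shares that passed were 66.7%, 66.7% and 75%, against 58.3%, 52.0% and 69.7% of all genes. NRP1 and NRP2, coreceptors for VEGFA, rose in S434A without H89 by 0.98 and 0.93 (adjusted p = 0.000142 and 0.00037) and with H89 in WT by 1.83 and 1.23 (adjusted p = 7.31e-07 and 3.08e-05). NRP1 also rose by 0.77 with H89 in S434A (adjusted p = 0.00147). ADM2, a relative of ADM, rose by 1.59 and FUNDC1, like BNIP3 a receptor for the removal of mitochondria, fell by 1.64 in S434A without H89 (adjusted p = 6.7e-05 and 0.000125). NDRG2, a relative of NDRG1, fell with H89 by 0.41 in S434A and by 0.74 in WT (adjusted p = 0.00126 and 4.34e-06). HIGD2A, a relative of HIGD1A, fell with H89 by 0.31 in S434A and by 0.55 in WT (adjusted p = 0.00557 and 4.69e-05), and turned to 0.37 in S434A and 0.49 in WT with the trend removed (adjusted p = 0.00572 and 0.000237). RAMP2, a subunit of the ADM receptor, fell by 0.98 with H89 in S434A (adjusted p = 0.00231) but stood at −0.30 with the trend removed (adjusted p = 0.287). NRP2 in S434A without H89 was at 0.17 with the trend removed (adjusted p = 0.353), and with H89 in S434A NRP1 was at 0.26 and NDRG2 at −0.0018 (adjusted p = 0.0964 and 0.991).

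With H89 present none of the 40 pathway genes and none of the 12 relatives passed between genotypes. The most abundant genes of the lists had log2 differences of −0.16 for EPAS1, −0.17 for EP300, 0.05 for ELOB, 0.08 for RBX1, −0.13 for PLOD1, 0.02 for TFRC, −0.07 for INSIG2, 0.02 for NDRG2 and −0.04 for NDRG3, each with an adjusted p of 1. For EPAS1 and EP300 every S434A library lay below every WT library, and for the others named here the libraries overlapped.

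For each member the 2 genes of most similar course over the 12 libraries were sought among 11062 named genes with a mean of at least 2 CPM, by the root mean square (RMS) difference of log2 CPM, each gene centred on its own mean. BNIP3 was closest to SMIM20 (0.03) and SRP14 (0.07), and its own RMS distance from its mean was 0.62. HIGD1A was closest to COMMD10 (0.15) and MIX23 (0.17), beside an RMS of 1.19. BNIP3L was closest to DYRK2 (0.07) and ACVR2A (0.07), HIF1A to YTHDC2 and MAN2A1 (both 0.14), and EGLN1 to PHYHIPL (0.08) and DCBLD1 (0.10). VEGFA was closest to DIDO1 (0.05) and MIEF1 (0.06), NDRG1 to TPRA1 and KIAA2013 (both 0.05) and CA9 to NRTN (0.09) and F2 (0.10). ADM (FBXW8 at 0.14 and NOL3 at 0.15) and EGLN3 (CTH and COLEC11, both at 0.17) had looser neighbours beside RMS values of 0.27 and 0.30. No member was among the 2 nearest genes of another, and these distances are descriptions that share library composition.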

How the data were processed

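RNA of 12 HepG2 libraries was analysed from 1 deposited table of raw counts per gene. The authors counted read pairs over exons with featureCounts 2.0.1, per the file headers, with an hg19 annotation and no option set for strand, multimapping or overlap. Bowtie 0.12.2 and hg19 are named per the submitters' processing notes. Strandedness of the libraries is not given in the sources used here. Exon lengths are those of the deposited table. Symbols were matched for 58633 of 62475 gene identifiers, and GC content came from GENCODE transcripts through the identifiers.

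Counts were tested as deposited with edgeR 4.0.16 (R 4.3.3): genes kept by filterByExpr with a minimum count of 10, TMM factors, and robust quasi-likelihood fits over 4 groups of 3 libraries, with p-values adjusted over 14435 genes. The series design names an adjusted p of 0.05 and a fold of 2. Here genes passed at any fold. CPM are TMM-scaled and SE is the log2 fold change over the root of F. The fit pools the spread of the groups. DESeq2 1.42.0, limma-voom 3.58.1 with a weight per group, other scaling and filters, a replicate block, removal of a spline trend (5 degrees of freedom) on GC and length, and leaving out each library were alternatives. The code was checked on simulated counts. Promoters came from RefSeq.

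The members and lists were chosen with earlier results of these data known. Named genes were the 10 members, up to 4 of each list with the smallest p per comparison, or the 2 of highest mean where none passed, and the 2 most similar genes per member. A gene of the lists is counted but not reported here.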

Additional observations from a re-analysis of the deposited data

Results flagged for a closer look

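The H89 effect differed between the genotypes, by the test of the interaction in edgeR's quasi-likelihood fit, for 4 of the 9 genes, beside 48.0% of all genes tested. The log2 effect in S434A minus that in WT was 1.27 for BNIP3, which fell with H89 in WT and was already low in untreated S434A. It was −0.65 for VEGFA, −0.73 for CA9 and −0.39 for NDRG1. With the GC and length trend removed the interaction was 1.55 for BNIP3 (adjusted p = 0.000966) and −0.79 for CA9 (adjusted p = 0.00365), while it was 0.35 for VEGFA (adjusted p = 0.112) and 0.45 for NDRG1 (adjusted p = 0.00892). Of the other members BNIP3L (−0.75, adjusted p = 0.000131), EGLN1 (−0.46, adjusted p = 0.0405) and EGLN3 (0.85, adjusted p = 0.0204) passed with the trend removed. Thus 3 of the 9 were then higher and 3 lower, beside 41.3% of all genes (3505 higher and 2393 lower).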

How the results depend on the processing

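Of the 9 tested members, BNIP3 kept its fall in S434A against WT without H89 and with H89 in WT under every alternative run, as did BNIP3L and EGLN1 their rise with H89 in both genotypes. The fit pools the spread of unequal groups, but with limma-voom and a weight per group no member lost its call in any comparison, and 3 gained one: HIF1A with H89 in S434A (2.00, adjusted p = 0.00878), and ADM (0.42, adjusted p = 0.0187) and NDRG1 (0.18, adjusted p = 0.00192) with H89 in WT.

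The number of members passing in S434A against WT without H89 was 4, and 7 with the GC and length trend removed. Of all genes 58.3% and 53.3% passed in these 2 fits. Leaving out 1 library gave 2 to 6, with 2 without replicate 2 of untreated S434A. With H89 in S434A it was 3, and 5 with upper-quartile factors and with DESeq2, and 4 to 5 without 1 library. For the interaction it was 4, and 2 to 5 without 1 library. Of the 40 pathway genes 22 passed with H89 in S434A, and 10 where the 2 groups compared were fitted alone, with 2743 genes called in all, against 7504. Past 2-fold, the genes called with the trend removed were 1611 in S434A against WT without H89 (3312 before), 1123 with H89 in S434A (2540 before) and 1847 for the interaction (3491 before). With H89 in S434A 832 were called past 2-fold in the 2 groups alone, 1582 without replicate 1 of untreated S434A and 1635 without replicate 2 of S434A with H89.

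The replicate numbers did not clearly pair the libraries. Over 18 same-numbered pairs the correlation of deviations was −0.15 to 0.47 (median 0.03), and 4 were over 0.1. Over 36 pairs of different number it was −0.48 to 0.30 (median −0.015), and 5 were over 0.1. Of the 12 libraries 7 correlated best with their own number, so these values do not settle whether a weak pairing exists. With the replicate block 4 members passed in S434A against WT without H89, 4 with H89 in S434A and 6 with H89 in WT, against 4, 3 and 6 without the block. The added call was HIF1A with H89 in S434A (1.63, adjusted p = 0.0391). With the block and the trend removed 9 members passed in S434A against WT without H89. In that fit 3181 of 14280 genes were higher and 4335 lower.

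Directions turned as follows, and the cause was not tested. With the trend removed, in S434A against WT without H89 VEGFA was −0.32, BNIP3L 0.66 and NDRG1 −0.49 (with the block −0.33, 0.66 and −0.50). With H89 in S434A VEGFA was 0.22, ADM 0.53, BNIP3 0.17 and NDRG1 0.015 (with the block 0.23, 0.53, 0.21 and 0.017). With H89 in WT VEGFA was −0.13, NDRG1 −0.44 and CA9 0.67 (with the block −0.14, −0.44 and 0.66). Between genotypes with H89 VEGFA was 0.0366 (with the block 0.0367). For the interaction VEGFA was 0.35, BNIP3L −0.75 and NDRG1 0.45 (with the block 0.37, −0.75 and 0.45). In the 2 groups alone, S434A against WT without H89 gave BNIP3L 0.12 and EGLN3 0.15. With limma-voom HIF1A was −0.19 there and 0.28 for the interaction.

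Without 1 library, S434A against WT without H89 ranged from −0.32 to 0.14 for BNIP3L and from −0.19 to 0.88 for HIF1A, and H89 in WT from −0.0046 to 0.18 for NDRG1. Between genotypes with H89 the ranges were −0.085 to 0.0198 for VEGFA, −0.087 to 0.045 for BNIP3L, −0.021 to 0.14 for EGLN1, −0.25 to 0.18 for ADM and −0.11 to 0.011 for BNIP3. For the interaction they were −0.17 to 0.30 for BNIP3L and −0.80 to 0.27 for HIF1A. With no filter on low counts HIF1A with H89 in WT (1.58, adjusted p = 0.101) and the NDRG1 interaction (−0.33, adjusted p = 0.065) did not pass, nor did NDRG1 in S434A against WT without H89 with DESeq2 (0.22, adjusted p = 0.0519). On unscaled library totals 20 of 40 group means of CPM moved by more than their SD, among them BNIP3 in untreated WT at 915.5 CPM.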
